A study of Mus musculus with 6 samples.

Results

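The genes described here are 40 that run the mammalian cell cycle and copy DNA, a list given by gene name; all 40 were found among 19386 genes of the authors' deposited expression table. They were followed in macrophages grown from the bone marrow of wild-type C57BL/6 mice that had been kept in room air (3 libraries) or exposed to cigarette smoke (3 libraries), with harvest on day 11 of culture. The cells of both groups were grown in medium conditioned by L929 fibroblasts, and no treatment of the cells after culture is given for either group. The marrow was depleted of red cells and taken mouse by mouse, but the labels do not tie a library to a mouse, and they give neither the length of the exposure nor the age and sex of the mice. In addition, 51 splicing events of the authors' deposited JuncBASE table lie within 18 of the 40 genes, of 10376 events in all, and 15 introns of the authors' deposited rMATS table lie within 11 of them, of 3887.

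A cell that divides passes through a gap phase under cyclins D and E, copies its DNA, and then condenses and separates its chromosomes under cyclins A and B. The retinoblastoma family holds E2F transcription factors in check until cyclin-dependent kinases release them, and E2F then drives the genes of replication. Genes of mitosis are switched on later, through promoter elements known as the cell cycle genes homology region (CHR) and the CCAAT box. In marrow cultures the colony-stimulating factor CSF1, which L929 cells release, both matures macrophages and keeps their precursors dividing, so that a culture holds cells in cycle beside resting ones.

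Promoters of 4 members, 1 replication gene (Mcm6) and 3 mitotic genes, are shown because these elements are what the genes of both phases are known for. Each line gives the 150 bases before the start of transcription, from RefSeq on GRCm38.p6, read 5′ to 3′ on the strand of the gene. Capitals mark matches, searched on both strands, to 3 motifs. The E2F letters were TTCCCGC, with the variants TTGGCGC, then TTCGCGC and lastly TTGCCGC. The CHR letters were TTTGAA or else TTCGAA, and the CCAAT box is its own letters; E2F matches may overlap each other, as in Mcm6. The windows are Mcm6 chr1:128359706-128359855, Cdk1 chr10:69352913-69353062, Cdc20 chr4:118437344-118437493 and Ccnb2 chr9:70421555-70421704, all on the minus strand. The elements do not part the genes cleanly: Cdk1 holds all 3, Mcm6 holds CCAAT beside E2F, and the CHR match of Ccnb2 lies outside the bases shown.
Mcm6: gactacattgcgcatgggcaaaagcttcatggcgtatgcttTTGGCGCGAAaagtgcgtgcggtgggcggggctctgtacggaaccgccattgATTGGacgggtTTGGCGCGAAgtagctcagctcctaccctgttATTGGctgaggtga
Cdk1: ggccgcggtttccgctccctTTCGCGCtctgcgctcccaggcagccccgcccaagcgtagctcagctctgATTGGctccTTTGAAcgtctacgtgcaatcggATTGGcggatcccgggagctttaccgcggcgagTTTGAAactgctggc
Cdc20: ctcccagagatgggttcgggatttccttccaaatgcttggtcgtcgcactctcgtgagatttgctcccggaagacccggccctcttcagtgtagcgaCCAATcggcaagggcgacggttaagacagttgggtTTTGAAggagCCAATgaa
Ccnb2: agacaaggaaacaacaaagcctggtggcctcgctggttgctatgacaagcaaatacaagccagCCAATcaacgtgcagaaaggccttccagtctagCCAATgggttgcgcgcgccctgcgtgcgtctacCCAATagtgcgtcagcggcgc

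Promoter windows reaching from 250 bases before to 50 after the start were found for 32 of the 40 genes. E2F letters stood in 6 of the 8 windowed genes of origin licensing and the helicase and in 1 of the 9 of chromosome, kinetochore and checkpoint function. CHR letters stood in 3 and 7 of the same genes. Over all 27025 genes with a window, 10.9% held E2F letters, 21.7% CHR letters and 41.1% CCAAT, against 37.5%, 50% and 78.1% of the members. A match of letters is a description of the window and does not show that a factor binds there.

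For expression the authors gave 1 mean of normalized counts for the 3 libraries of each group, 1 mean over 24 libraries, of which 18 are not analysed here, and their DESeq2 comparison of the groups. No value of a single library was available for expression, so the spread within a group is seen only through the authors' standard errors, which rest on the fit to all 24 libraries. Since no library is tied to a mouse, the p-values measure the spread between libraries, which may be technical. The depth of each library is unknown. In these bulk samples, fewer dividing cells and less RNA per cell cannot be told apart. All 10 macrophage markers were listed, with means of 348 to 24772 normalized counts after smoke, and none was called in the authors' deposited table. At an unadjusted DESeq2 p under 0.05 there were 2 of the 10 in that table, where 22.8% of all tested genes were. They are Mrc1, the mannose receptor, with 3601 and 2196 normalized counts (log2 fold change -0.71, DESeq2 adjusted p 0.0836), and Fcgr1, an Fc receptor, with 537 and 762 (0.51, DESeq2 adjusted p 0.218). Of 7 markers of granulocyte and monocyte progenitors, which divide in marrow, 3 were listed: Kit had 54.5 normalized counts in room air and 47.9 in smoke, Cd34 had 18.7 and 33.8, and Ctsg had 0.6 and 0. Neutrophil markers summed to 14.6 and 20.7 normalized counts over 4 of 8 genes, B cell markers to 6.68 and 4.14 over 4 of 6, erythroid markers to 0.129 and 0.801 over 2 of 6, dendritic markers to 1.29 and 1.02 over 3 of 5, mast cell and basophil markers to 0.322 and 0.293 over 1 of 4, megakaryocyte markers to 39.1 and 43.5 over 2 of 3 and stromal markers to 43.6 and 9.48 over all 6, and no T or NK cell marker was listed. The part of these cells in the results was not tested.

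The cell cycle genes were expressed in both groups, and none was called different. In the authors' deposited table, member means ran from 54.3 to 4719 normalized counts in room air and from 71.4 to 3178 after smoke, so every gene could be tested. By DESeq2, 0 of 40 members had an adjusted p under 0.05, where 7.69% of all 12082 genes with an adjusted p did (4.15% higher and 3.53% lower after smoke). At an unadjusted p under 0.05 it was again 0 of 40, where it was 22.8% of all genes. The lowest adjusted p of a member was 0.296. The median log2 fold change of the members was 0.03, with 21 above 0 and 19 below.

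A count of 0 did not come with narrow intervals. The median standard error of the log2 fold change was 0.73 among the members in the authors' deposited table and 0.17 over the 8177 tested genes in the same range of mean counts. Set against genes whose mean lay within 25% of its own, each of the 40 members had a standard error above the median, and 35 had one larger than 95% of those genes. For all 40 the 95% interval of the fold change included no change. It reached past a 2-fold increase for 32 members and past a 2-fold decrease for 26, and it lay within 2-fold in both directions for only 5. The size of the changes themselves was ordinary: the median absolute log2 fold change was 0.18 among the members and 0.20 over the genes in that range of means.

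**Figure D1:**
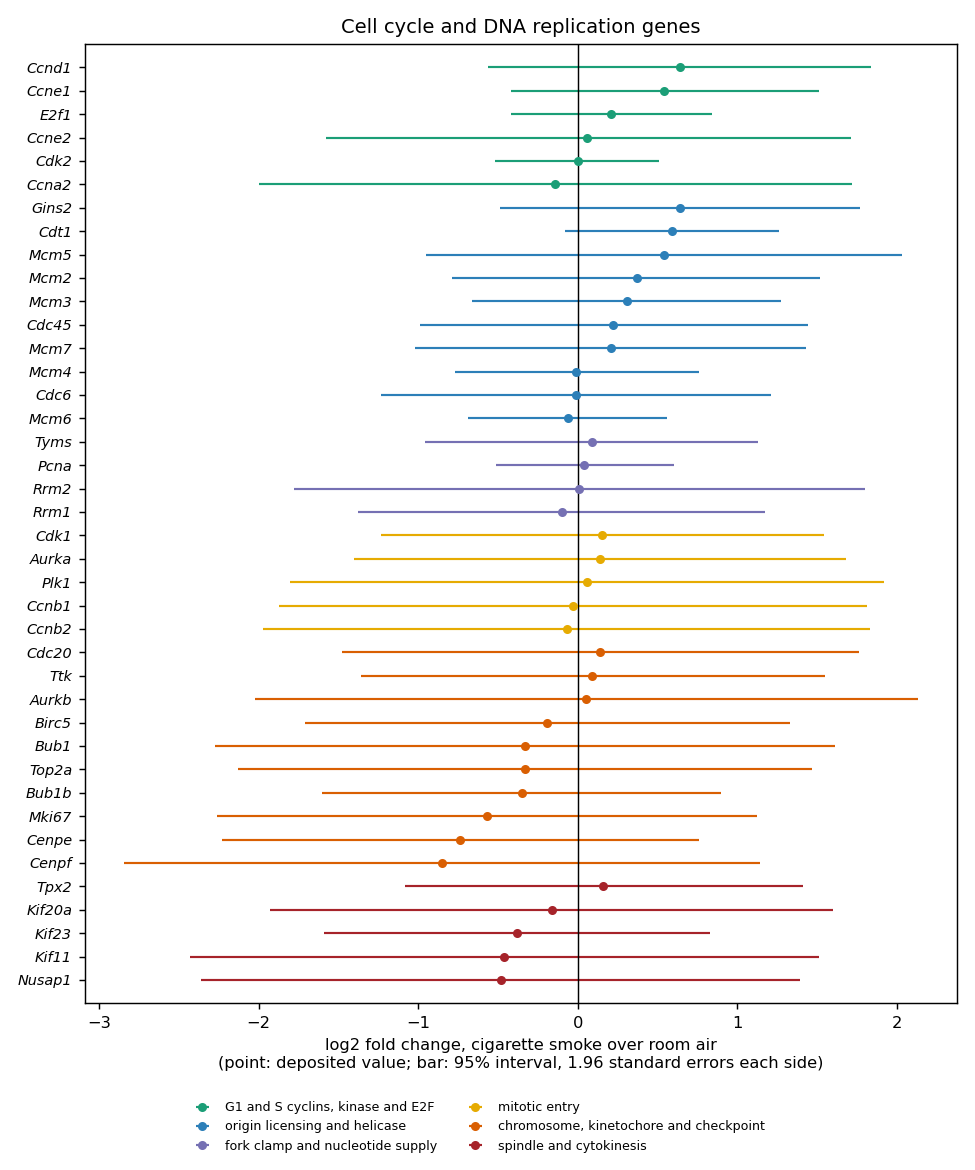
Log2 fold change of cigarette smoke over room air for each of the 40 genes, one per row, as deposited by the authors, with bars for the 95% interval and colours for the 6 functional groups. Every bar crosses 0, and the bars of the mitotic groups are wider than most of those of the replication groups.

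The genes that commit a cell to division come first. Ccnd1, which encodes cyclin D1, the cyclin that growth factors induce (ENSMUSG00000070348.5, chromosome 7, 144929931 to 144939925, minus strand, GRCm38 and GENCODE M21 as for all positions here), averaged 1438 normalized counts in room air and 2237 in smoke in the authors' deposited table. That is a log2 fold change of 0.64 (SE 0.61, DESeq2 adjusted p 0.586), with a 95% interval from 0.68-fold to 3.57-fold. Ccne1, one of the E cyclins that start DNA synthesis with Cdk2, had means of 55.7 and 82.1 in the authors' deposited table. Cdk2 itself had 287 and 289 there, with the smallest standard error of the list, 0.26. E2f1, the transcription factor released by these kinases, had 230 and 269 in that table, and Ccne2 had 131 and 137. Ccna2, whose cyclin A2 acts in S phase and at mitotic entry (ENSMUSG00000027715.9, chromosome 3, 36564865 to 36572150, minus strand), was the lowest of the group, with 720 and 653 normalized counts and a log2 fold change of -0.14 (SE 0.95, DESeq2 adjusted p 0.958) in the authors' deposited table.

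Origin licensing is the loading of the MCM helicase onto DNA by Cdc6 and Cdt1, and Cdc45 and the GINS complex then turn the helicase on. Of the 10 genes of this group, 7 had a log2 fold change above 0 and 3 had one below in the authors' deposited table, with a median of 0.26. Among 12 other origin and licensing genes, from the list of other cell cycle genes described below, 3 were above 0 and 9 below, with a median of -0.27. Cdt1 (ENSMUSG00000006585.3, chromosome 8, 122568015 to 122573554, plus strand) came nearest to the threshold of all members: 194 normalized counts in room air and 294 in smoke, a log2 fold change of 0.59 (SE 0.34, DESeq2 adjusted p 0.296) in the authors' deposited table. With the trend in transcript length and GC over all genes taken out, it was 0.35 (adjusted p 0.804). It shares its strand with the overlapping gene Gm20388, so its counts are uncertain. Gins2, a GINS subunit (ENSMUSG00000031821.11, chromosome 8, 120578633 to 120589304, minus strand), had means of 54.3 and 85.5 and a log2 fold change of 0.64 (SE 0.57, DESeq2 adjusted p 0.556) in that table.

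The 6 subunits of the MCM ring did not have the same ratio. Log2 fold changes in the authors' deposited table were 0.54 for Mcm5, 0.37 for Mcm2, 0.31 for Mcm3, 0.21 for Mcm7, -0.01 for Mcm4 and -0.06 for Mcm6, with standard errors from 0.32 for Mcm6 to 0.76 for Mcm5. The group means behind the outermost pair were 412 and 600 normalized counts for Mcm5 and 814 and 781 for Mcm6 in that table. Differences between subunits were not tested, and they lie within the standard errors. Mcm6 (ENSMUSG00000026355.11, chromosome 1, 128331590 to 128359664, minus strand) had the lowest fold change of the licensing genes, with a DESeq2 adjusted p of 0.943. Cdc45 had 86.2 and 101 normalized counts and Cdc6 had 71.3 and 71.4 in the authors' deposited table.

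At the replication fork, Pcna encodes the sliding clamp that holds the polymerases, and Tyms, Rrm1 and Rrm2 supply deoxynucleotides. All 4 had log2 fold changes between -0.10 and 0.09 in the authors' deposited table. Tyms, thymidylate synthase (ENSMUSG00000025747.12, chromosome 5, 30058202 to 30073617, minus strand), had means of 91.4 and 97.9 normalized counts and a log2 fold change of 0.09 (SE 0.53, DESeq2 adjusted p 0.954) in the authors' deposited table. Rrm1, the large subunit of ribonucleotide reductase (ENSMUSG00000030978.10, chromosome 7, 102441695 to 102469771, plus strand), had 967 and 900 and a log2 fold change of -0.10 (SE 0.65, DESeq2 adjusted p 0.954) there. Rrm2, the small subunit, had 480 and 484 in that table, yet its standard error was 0.91, so that its interval reached from 0.29-fold to 3.49-fold. Pcna was among the most tightly measured members, with 1251 and 1289 normalized counts, a standard error of 0.28 and an interval from 0.70-fold to 1.51-fold.

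Entry into mitosis is driven by Cdk1 with cyclins B1 and B2, and by the kinases Plk1 and Aurka. The 5 genes of this group had log2 fold changes from -0.07 to 0.15 in the authors' deposited table, while their standard errors ran from 0.71 to 0.97. Cdk1 (ENSMUSG00000019942.13, chromosome 10, 69335146 to 69352938, minus strand) had means of 269 and 300 normalized counts, with a log2 fold change of 0.15 (SE 0.71, DESeq2 adjusted p 0.935) in that table. Ccnb2 (ENSMUSG00000032218.7, chromosome 9, 70407692 to 70421547, minus strand) had 371 and 353, with a log2 fold change of -0.07 (SE 0.97, DESeq2 adjusted p 0.978) in the authors' deposited table. Ccnb1, Plk1 and Aurka had means of 363, 227 and 147 normalized counts in room air and of 355, 238 and 162 in smoke there.

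The genes of chromosome condensation, the kinetochore and the spindle checkpoint held the 3 lowest fold changes of the list. Of the 10 genes, 7 were below 0 in the authors' deposited table, with a median log2 fold change of -0.33, or -0.16 with the length and GC trend taken out. The lowest was Cenpf, a large kinetochore and nuclear matrix protein (ENSMUSG00000026605.14, chromosome 1, 189640606 to 189688086, minus strand), with 514 normalized counts in room air and 286 in smoke, a log2 fold change of -0.85 (SE 1.02, DESeq2 adjusted p 0.683) in that table. Its interval reached from 0.14-fold to 2.21-fold. The kinetochore motor gene Cenpe had 550 and 331, and Mki67, which encodes the proliferation antigen Ki-67, had 4719 and 3178 in the authors' deposited table, log2 fold changes of -0.74 (SE 0.76) and -0.57 (SE 0.86). Top2a, the topoisomerase that untangles chromosomes, had 2347 and 1866 in that table, Bub1b and Bub1 of the spindle checkpoint had 409 and 322 and 273 and 217, and Birc5, which encodes survivin, had 221 and 194.

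The other 3 genes of that group had means that were slightly above those of room air. Cdc20, the activator of the anaphase-promoting complex (ENSMUSG00000006398.15, chromosome 4, 118432901 to 118437352, minus strand), had 191 and 211 normalized counts and a log2 fold change of 0.14 (SE 0.83, DESeq2 adjusted p 0.952) in the authors' deposited table. The checkpoint kinase gene Ttk had 118 and 126 in that table. Aurkb, which encodes the Aurora kinase of the chromosomal passenger complex together with survivin, had 221 and 230 and the largest standard error of all members, 1.06.

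Among the 5 genes of the spindle and cytokinesis, 4 were below 0 in the authors' deposited table, with a median log2 fold change of -0.38, or -0.23 with the trend taken out. Nusap1, a microtubule-binding protein of the spindle (ENSMUSG00000027306.15, chromosome 2, 119618298 to 119651244, plus strand), had 511 and 366 normalized counts, a log2 fold change of -0.48 (SE 0.96, DESeq2 adjusted p 0.828) in that table. The motor genes Kif11, Kif23 and Kif20a had 653 and 475, 562 and 432, and 370 and 331 there. Tpx2, the activator of Aurora A on the spindle (ENSMUSG00000027469.16, chromosome 2, 152847964 to 152895321, plus strand), had 518 and 581, a log2 fold change of 0.16 (SE 0.63, DESeq2 adjusted p 0.922) in the authors' deposited table. Kif11 overlaps a processed pseudogene on its own strand, and its reads are uncertain, as are those of Rrm1, Top2a, Mcm7, Tpx2 and Nusap1, which overlap small RNA genes or unnamed transcripts on their strand. Whether the counts keep the strand was not established. Ccnd1, Ccne2, Cdk2, Ccna2, Gins2, Cdc45, Mcm7, Cdc20, Kif20a and Nusap1 overlap protein-coding genes on the opposite strand. Without strand, their counts would be uncertain too.

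Put together by phase, 14 of the 20 replication genes had a log2 fold change above 0 and 13 of the 20 mitotic genes had one below 0 in the authors' deposited table, with medians of 0.15 and -0.17. Summed over the group, mean normalized counts were 8837 in room air and 10197 in smoke for replication, and 13554 and 10555 for mitosis. A single gene carried over 50% of each difference: without Ccnd1 the replication sums were 7399 and 7960, and without Mki67 the mitotic sums were 8835 and 7377. With no member past the threshold and no value of a single library, the difference between the phases was not tested. The medians were 49.2% GC and 3322 nucleotides for replication against 47% GC and 3474 nucleotides for mitosis. The functional groups were further apart, with a median GC of 51.8% for origin licensing and 45% for the chromosome, kinetochore and checkpoint genes. Fold changes of single genes did vary with composition. Across the 40 members, which share their libraries, Spearman's rho of the deposited log2 fold change was 0.695 with the GC content of the longest transcript and -0.395 with its length, and across 12071 tested genes it was 0.483 and -0.448. The 3 members with the lowest fold changes, Cenpf, Cenpe and Mki67, have transcripts of 11130, 7910 and 10061 nucleotides, against a median of 3410 for the list. With a smooth trend in length and GC over all genes taken out, the medians were 0.13 for the replication genes and -0.16 for the mitotic ones, with 15 of 20 above 0 and 16 of 20 below, and no member was called. The part of transcript composition in the pattern by phase was not tested further. The log2 fold change of Cenpf was then -0.47, that of Cenpe -0.42 and that of Mki67 -0.28.

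**Figure D2:**
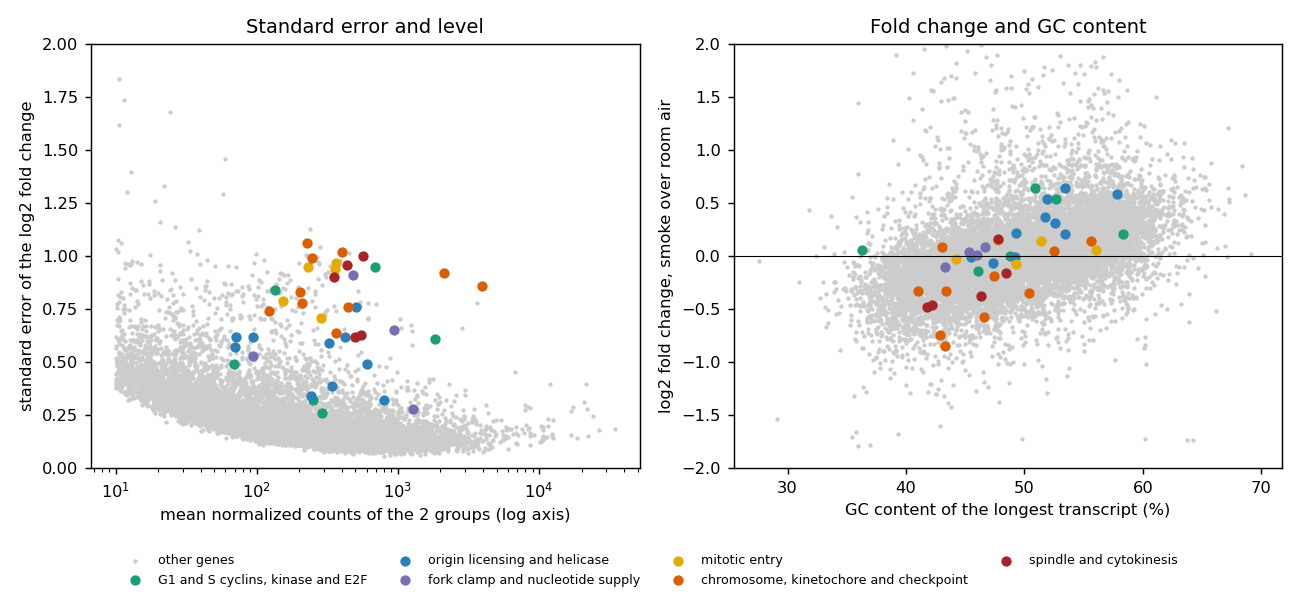
Left, standard error of the deposited log2 fold change against the mean of the 2 groups (log axis) for the cell cycle genes (coloured by function) and other tested genes averaging 10 or more normalized counts (grey); right, log2 fold change against the GC content of the longest transcript. Most members lie above the bulk of the grey points in standard error, up to 1.06, and their fold changes rise with GC content (rho 0.695); grey points outside the axis limits are not drawn.

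The level of these genes stood apart from the average library in another way. Of the 40 members, 37 had a higher mean in both groups than over the 24 libraries of the fit in the authors' deposited table, and Pcna alone had a lower one in both (1251 and 1289 against 1425 normalized counts). Taking each group mean as that of 3 libraries, the 6 libraries held a median of 54.6% of the summed normalized counts of a member, from 22.3% for Pcna to 79.5% for Ttk. An even spread would give 25%, and the median over all genes tested was 23.4%. The share was over 25% for 39 of the 40 members and for 44.7% of all genes tested. It was so for 143 of the 174 other cell cycle genes listed, whose median was 49.3%, so that the level is not particular to the 40. The sum passed 100% for no gene, as it must if the means share one scaling. The share was highest for chromosome, kinetochore and checkpoint genes, with a median of 67.6%, and was 62.9% for the spindle and cytokinesis, 54% for mitotic entry and 50% for licensing. Within these groups Cenpe (25.1%), Tpx2 (32.3%), Cdt1 (27.4%) and Mcm6 (34.4%) lay below the others. What the other 18 libraries are was not analysed here.

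**Figure D3:**
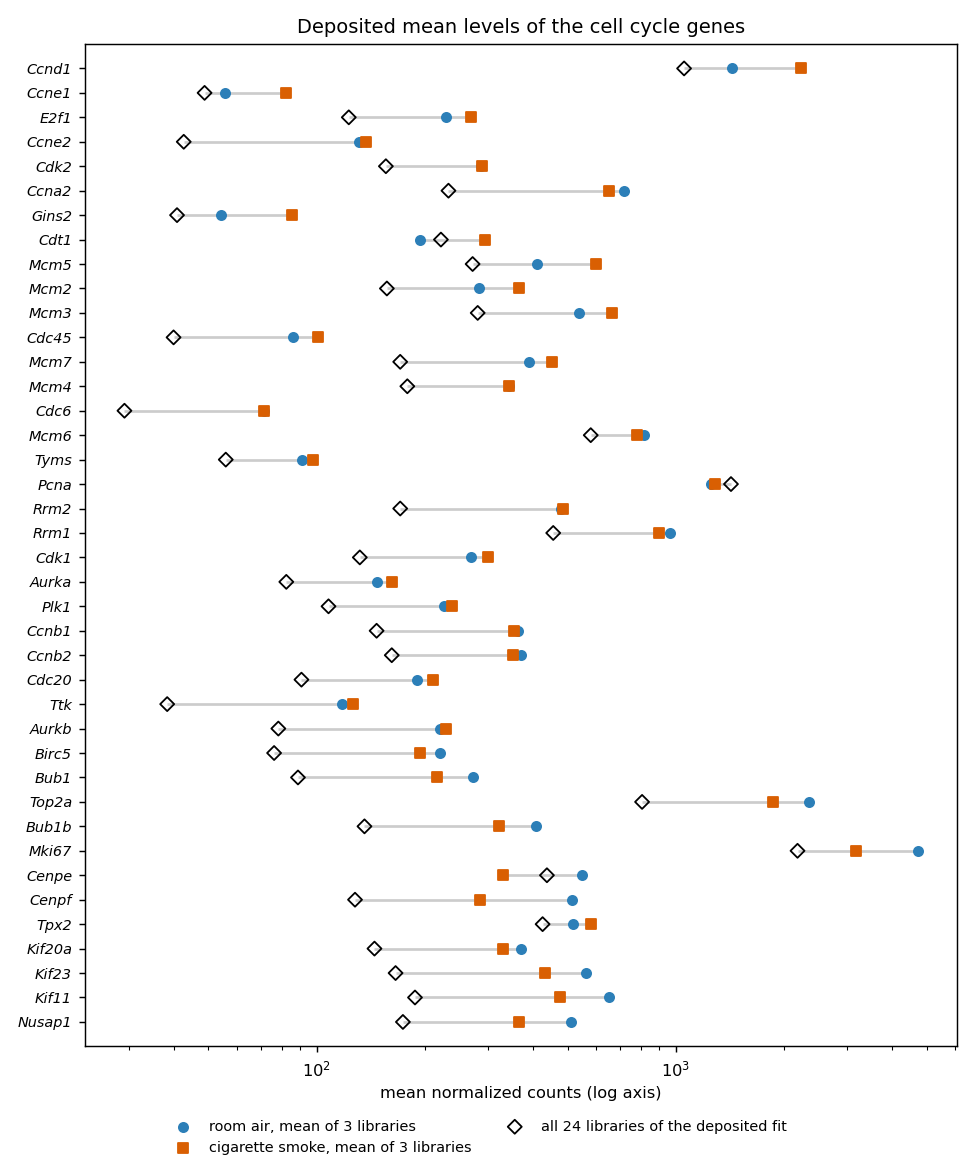
Mean normalized counts (log axis) of each cell cycle gene in room air (circles), in cigarette smoke (squares) and over the 24 libraries of the authors' fit (open diamonds), all as deposited and with no spread per library available. For most genes both group means lie close together and to the right of the diamond; for Pcna both lie to its left.

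Beyond the 40, 174 other genes of the cell cycle were taken from a list and all were listed in the authors' deposited table. By DESeq2 adjusted p, 7 of the 174 (3 higher and 4 lower after smoke) were called there, against the 7.69% of all genes. Among the 7 are Rbl2 and Rb1 of the retinoblastoma family, which restrains E2F, while Rbl1 of the same family had 391 and 374 normalized counts in the authors' deposited table (DESeq2 adjusted p 0.954). Rbl2 had 550 normalized counts in room air and 403 in smoke, a log2 fold change of -0.46 (SE 0.12, DESeq2 adjusted p 0.00758) in the authors' deposited table, and Rb1 had 372 and 261, a log2 fold change of -0.51 (SE 0.18, adjusted p 0.0485). E2f4, an E2F that works with the retinoblastoma proteins in resting cells, rose from 155 to 242, a log2 fold change of 0.64 (SE 0.15, DESeq2 adjusted p 0.00212) in that table. Cdk4, the partner kinase of cyclin D, rose from 561 to 674, with 0.27 (SE 0.08, DESeq2 adjusted p 0.0257) in the authors' deposited table.

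The other 3 called genes belong to the spindle and chromosome part of the list. Nipbl, which loads cohesin, fell from 861 to 559 normalized counts (log2 fold change -0.62, SE 0.14, DESeq2 adjusted p 0.000752) in the authors' deposited table, and Stag2, a cohesin subunit, fell from 1068 to 771 (-0.47, SE 0.15, DESeq2 adjusted p 0.0329). Anapc11, a subunit of the anaphase-promoting complex, rose from 199 to 324 (0.69, SE 0.24, DESeq2 adjusted p 0.0495) in that table. None of these 7 calls remained once the length and GC trend was taken out, where the adjusted p was 0.193 for Rbl2 and higher for the other 6. Anapc11 and Rbl2 kept most of their log2 fold change (0.59 and -0.32), E2f4, Rb1 and Nipbl were at 0.38, -0.27 and -0.26, and Cdk4 and Stag2 were near 0, at 0.07 and -0.10. Among the other spindle and chromosome genes 59 of 80 had a log2 fold change below 0 (median -0.21, or -0.13 with the trend taken out), and among the other replication genes 23 of 48 did (median 0.00), where 6083 of all 12082 tested genes did.

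Splicing within the cell cycle genes was read from JuncBASE, which gives for each event and library the percentage of reads that support inclusion. The 51 events were 14 retained introns, 6 cassette exons, 29 alternative donor or acceptor events and 2 alternative first or last exons, and 24 of them used at least 1 junction marked as not annotated. Some donor and acceptor events, such as those of Top2a, enter the same site more than once, as complementary forms or from junction reads alone. The events are therefore not all distinct. Values were missing for 16 of the 51 events in cigarette smoke replicate 1, for 5 in smoke replicate 3 and for 1 in room air replicate 1. Over all 10376 events, 4169 values were missing in smoke replicate 1, 189 in smoke replicate 2 and 50 in smoke replicate 3. In room air replicates 1 to 3 it was 398, 7 and 1, and the cause was not tested. Levels were compared with limma on log2 odds of inclusion, fitted over all 10376 events. No event was called at a Benjamini-Hochberg adjusted p of 0.05, in the members or over all events (0% called, lowest limma adjusted p 0.128 in both). Without smoke replicate 3, limma called 5 member events, 4 of them introns of Kif23 and Aurkb, and 1131 events over all. At an unadjusted p under 0.05 there were 8 of 51 member events, where 10.8% of all events were, and all 8 were retained introns. By the test in the authors' deposited table, 1 of the 51 had an unadjusted p under 0.05, an exon of Nusap1 (0.0128), where 4.15% of all events did, and the lowest corrected p was 0.615.

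Retained introns in the cell cycle genes had lower mean levels after smoke, as did most introns of other genes, and none passed the adjusted test. In 13 of 14 the mean level was lower, with a median difference of -5.5 percentage points, where 89.9% of all 3305 retained introns had a lower mean and the median difference was -3.79. For the 10 introns measured in every library, retention averaged 8.86%, 9.39% and 9.29% in the room air libraries 1 to 3 and 1.72%, 2.69% and 3.33% in the smoke libraries 1 to 3. The groups did not overlap, and the means were 9.18% ± 0.283 (SD, n = 3) and 2.58% ± 0.81 (SD, n = 3). Without smoke replicate 1, which had the most missing values, the difference was -6.17 percentage points in place of -6.6. Over all 1369 introns whose mean in room air fell in the same range, 3.85% to 22.7%, the mean went from 8.5% to 3.83%. Their library means, 8.52%, 9.49% and 7.49% in room air and 2.39%, 3.66% and 5.44% in smoke, did not overlap either, nor did those of all 1992 introns measured in every library, which ran from 14.7% to 16.7% and from 10.3% to 12.8%. At an unadjusted limma p under 0.05 and lower after smoke there were 8 of the 14 member introns and 20.8% of all retained introns.

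**Figure D4:**
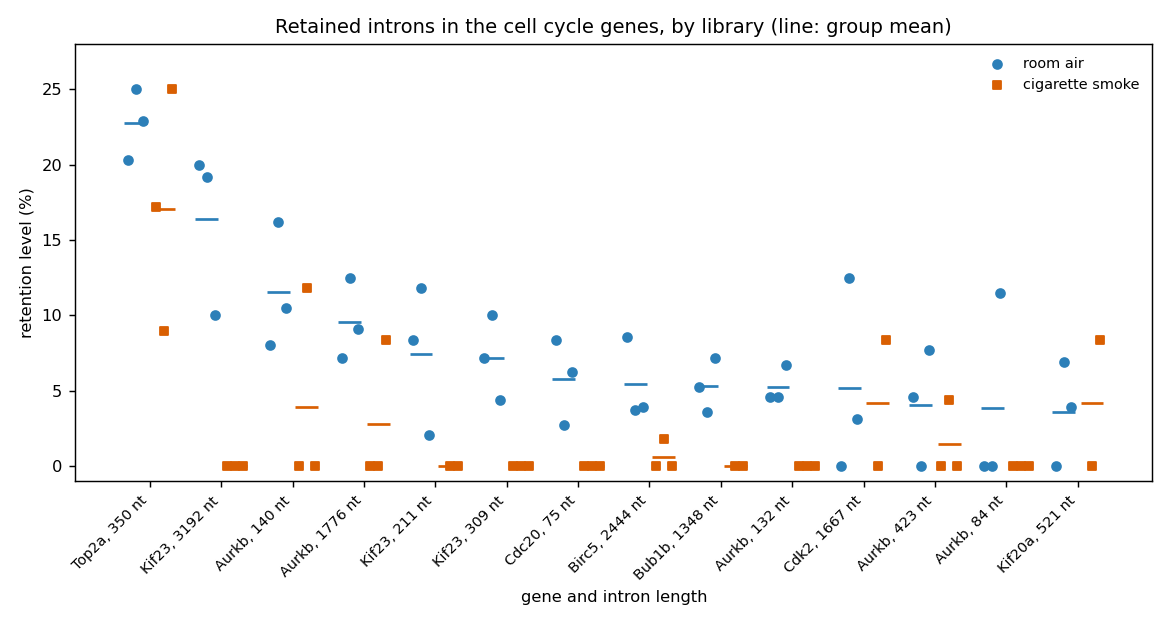
Retention level in percent of each of the 14 retained introns, named by gene and length, in the 3 room air libraries (circles) and the cigarette smoke libraries (squares, 2 where smoke replicate 1 had no value); short lines are group means. In 7 introns every smoke value is 0%, and the intron of Top2a is the highest in both groups.

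Kif23 holds 3 of the introns. Its protein, also known as MKLP1, is the motor of the centralspindlin complex that bundles microtubules between separating chromosomes. The intron at chr9:61932188-61935379 was retained at 20%, 19.2% and 10% in the 3 room air libraries and at 0% in every smoke library, a mean of 16.4% ± 5.56 (SD, n = 3) against 0% (log2 odds -4.32, SE 0.50, limma adjusted p 0.128). Since every smoke value is 0%, the size of the log2 odds depends on the pseudocount of 1 percentage point: with 5 it was -2.31 (limma adjusted p 0.108), and no member event was called. The intron at chr9:61936773-61937081 was at 7.14%, 10% and 4.35% in room air and again at 0% in every smoke library (limma adjusted p 0.155). The third, at chr9:61937219-61937429, was at 8.33%, 11.8% and 2.08% in room air and at 0% in smoke replicates 2 and 3, with no value in smoke replicate 1 (limma adjusted p 0.291). All room air values of the 3 introns were above the smoke values.

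The short introns of Aurkb and Cdc20 are shown whole because annotated transcripts that retain them give their sequence, with 3 exon bases on each side and the first and last 6 intron bases in capitals.
Aurkb, chr11:69048042-69048173, plus strand: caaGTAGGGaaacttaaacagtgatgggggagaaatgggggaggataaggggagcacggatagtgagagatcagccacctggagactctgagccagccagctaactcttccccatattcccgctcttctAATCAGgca
Cdc20, chr4:118435702-118435776, minus strand: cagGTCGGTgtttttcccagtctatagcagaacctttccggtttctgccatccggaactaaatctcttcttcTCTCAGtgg
The Aurkb intron, 132 bases long, was retained at 4.55%, 4.55% and 6.67% in the room air libraries and at 0% in all smoke libraries, with a mean of 5.26% ± 1.22 (SD, n = 3) in room air (limma adjusted p 0.155). The Cdc20 intron of 75 bases was at 8.33%, 2.7% and 6.25% in room air and at 0% in all smoke libraries (limma adjusted p 0.164). Both have coding exons on either side.

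The other introns with an unadjusted limma p under 0.05 lie in Bub1b, Birc5 and Aurkb. In Bub1b (chr2:118639740-118641087, plus strand) retention was 5.26%, 3.57% and 7.14% in room air and 0% in smoke replicates 2 and 3, with no value in replicate 1 (limma adjusted p 0.186). The survivin gene Birc5 had 8.57%, 3.75% and 3.91% in room air and 0%, 1.82% and 0% in smoke for the intron at chr11:117852781-117855224, plus strand (limma adjusted p 0.293). The first of the Aurkb introns, at chr11:69046009-69047784, overlapped between the groups, with 7.14%, 12.5% and 9.09% in room air and 0%, 0% and 8.33% in smoke (limma adjusted p 0.451). Of the 10 introns with all values, 5 had every smoke value below every room air value and none had them above, where 38.7% and 0.251% of all such introns did, and 46.7% of those in the same range of room air levels were below. In 5 of the 10 every smoke library was at 0%, against 6.06% of the introns in that range. No read counts came with the levels, so how small a retention a level of 0% could hide is unknown. Levels of a few percent may rest on few reads. The introns in that range were matched on room air level and not on read coverage, and the part of coverage was not tested. The highest retention was in Top2a (chr11:98993414-98993763, minus strand), at 20.3%, 25% and 22.9% in room air and 17.2%, 8.93% and 25% in smoke, where the groups overlapped (limma adjusted p 0.643). The last 5 introns, of 84, 140 and 423 bases in Aurkb, 1667 in Cdk2 and 521 in Kif20a, also overlapped, with values from 0% to 16.2% in room air and from 0% to 11.8% in smoke.

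The rMATS comparison, which counts junction reads together with reads inside the intron, listed 15 introns in 11 member genes. Of the 15, the authors' deposited table gives 2 a false discovery rate below 0.05, where it does so for 14.5% of all 3887 introns. They are the Birc5 intron above (difference of set 1 minus set 2 of 2 percentage points, false discovery rate 0.0138) and the intron of Mcm6 at chr1:128332052-128333516, minus strand (1.2 percentage points, 0.0146) in that table. The table does not say which group is set 1, so no direction is named. Of the 15 differences, 7 were above 0 and 8 below, from -12 to 3.8 percentage points. The 3 other introns that JuncBASE also lists, in Aurkb (2.8 and 3.8 percentage points) and Top2a (2.3), had false discovery rates of 0.317, 0.422 and 0.588 in the authors' deposited table.

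Outside retained introns, 0 of 37 member events had an unadjusted limma p under 0.05, where 6.15% of such events did. Some of the 37 enter the same site more than once. The lowest unadjusted limma p was 0.0646, for an acceptor of Kif23. It was at 21.1%, 24% and 10.3% in room air and 0% and 10% in smoke replicates 2 and 3 (limma adjusted p 0.476). Cassette exons distinguish transcript forms of these genes. Kif23 has 2 of them, both of a length divisible by 3. The long one is exon 18 of the full-length transcript, 312 bases at chr9:61923905-61924216, minus strand, which distinguishes the CHO1 form of the protein from the shorter MKLP1. The short one, 42 bases at chr9:61933229-61933270, lies inside the intron of 3192 bases described above, so that the retention event and the exon share the same exclusion junction. Nusap1 has a coding exon of 99 bases at chr2:119633720-119633818, plus strand. These exons are shown because each is a coding exon of the spindle and cytokinesis genes whose length keeps the reading frame; the sequences were read from GENCODE M21 transcripts, and of exon 18 the first 120 bases are given.
Kif23 exon 18, start: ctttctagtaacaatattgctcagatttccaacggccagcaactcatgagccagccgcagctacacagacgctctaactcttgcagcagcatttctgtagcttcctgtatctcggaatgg
Kif23 short exon: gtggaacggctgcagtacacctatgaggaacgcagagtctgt
Nusap1 exon: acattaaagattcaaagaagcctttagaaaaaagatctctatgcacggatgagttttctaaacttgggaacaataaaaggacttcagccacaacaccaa

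Exon 18 of Kif23 was included at 54.3%, 42.5% and 45.6% in the room air libraries and at 30.8%, 41.7% and 43.8% in the smoke libraries. The ranges overlap, and the means of 47.5% ± 6.09 and 38.7% ± 6.97 (SD, n = 3 each) differed by -8.75 percentage points (limma adjusted p 0.637). The short exon was at 42.9%, 43.2% and 44.9% in room air and 28.6%, 42.9% and 41.2% in smoke (limma adjusted p 0.71). Inclusion and skipping of both exons were found in each library of both groups.

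Nusap1 inclusion was 89.5%, 87.5% and 87.7% in room air and 80% and 78.3% in smoke replicates 1 and 2, with no value in smoke replicate 3. Its 2 smoke values lay below all room air values, a difference of -9.08 percentage points (log2 odds -0.93, SE 0.51, limma adjusted p 0.525). The exon of Cdk2 that lengthens the kinase, 144 bases, was at 10%, 16% and 13.9% in room air and at 18.8% and 18.5% in smoke replicates 2 and 3 (limma adjusted p 0.648). Mki67 kept its long exon of 960 bases at 89.5%, 87.1% and 88.9% in room air and at 100%, 90.3% and 84.6% in smoke (limma adjusted p 0.63). A Birc5 exon of 110 bases was at 96.5%, 100% and 92.7% in room air and 84.6% and 90.5% in smoke replicates 1 and 2 (limma adjusted p 0.504).

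**Figure D5:**
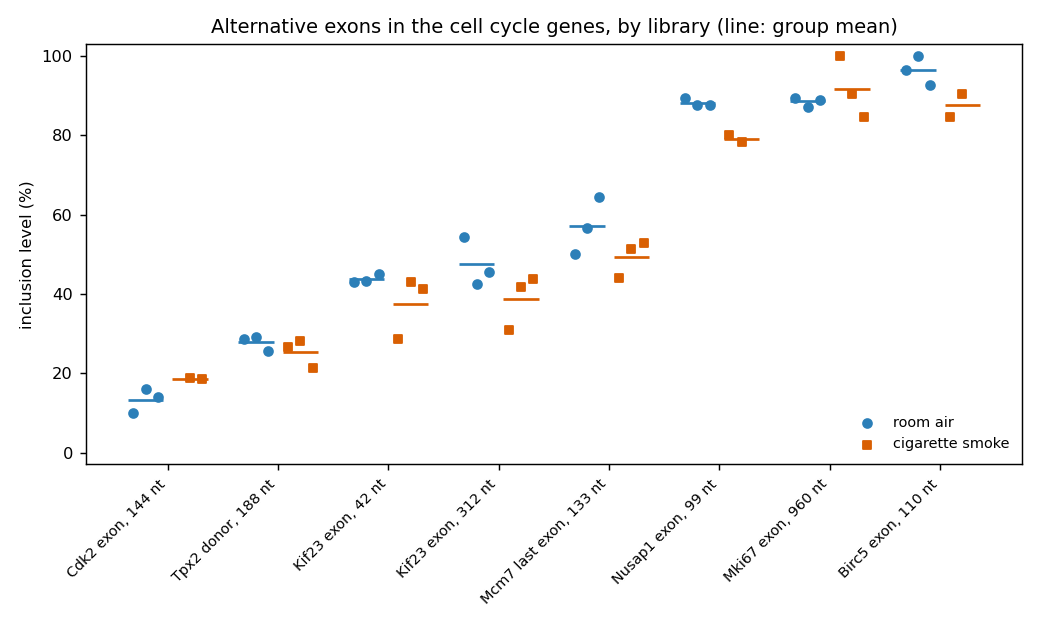
Inclusion level in percent of the 6 cassette exons, of the last exon of Mcm7 and of the alternative donor of Tpx2, by library, in room air (circles) and cigarette smoke (squares); short lines are group means. No event was called, and the Kif23 exons lie between 28.6% and 54.3% in every library.

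Of the other events, the alternative last exon of Mcm7 was used at 50%, 56.5% and 64.5% in room air and 44%, 51.4% and 52.8% in smoke (limma adjusted p 0.666), and the alternative donor of Tpx2, from junction reads alone, at 28.6%, 29.2% and 25.7% and at 26.7%, 28% and 21.4% (limma adjusted p 0.858). In both genes the groups overlapped. Near the Top2a intron described above the acceptor was split between 2 sites, with the main form, from junction reads alone, at 83.9%, 80% and 85% in room air and 85.7%, 85% and 92.3% in smoke (limma adjusted p 0.623). The events with the highest mean level were acceptor choices with at least 1 junction marked as not annotated. The mark is given per event and does not say which of the forms is unannotated. They lie in Bub1b, at 100% in 5 libraries and 93.8% in smoke replicate 3; in Ccnb2, at 96.4%, 100% and 100% in room air and 94.1% and 100% in smoke replicates 1 and 2; and in Tpx2, at 95.2%, 100% and 95.2% and at 100%, 100% and 93.8%. Their limma adjusted p-values were 0.623, 0.792 and 0.756.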

How the data were processed

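RNA sequencing of 6 macrophage cultures gave the tables used here. The submitters' processing notes name mm10, STAR, DESeq2, SAMtools 1.9 and bedtools 2.27.1, without roles. Per the file headers, the authors deposited signal values that are means of normalized counts per group and over 24 libraries, log2 fold changes with standard errors, Wald scores, p-values and adjusted p-values. JuncBASE percent inclusion per library and its median differences (a score in percentage points), and the rMATS difference score with its p-values, were also deposited by the authors. The rMATS table has 6 columns of per-sample values that were not used, since its sets are not named and some cells of counts have lost the separators between libraries.

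Expression results are the authors' own calls at an adjusted p under 0.05; 95% intervals were computed from their standard errors. A trend in GC content and log2 length (natural cubic splines, 4 degrees of freedom each, statsmodels 0.14.6 and patsy 1.0.2) was removed in one alternative. Inclusion p in percent became log2((p + 1)/(100 - p + 1)) and was fitted with limma 3.58.1 in R 4.3.3. Introns and exons were placed on member genes by strand and position in GENCODE M21 (GRCm38). Both scripts were tested on simulated data. Genes given in full are, per functional group, the highest and lowest fold change (mean 10 or more) and the member nearest the threshold; events are those with an unadjusted p under 0.05 and the 3 highest levels; the other genes and events were added after their values were seen. Members and lists were chosen with earlier results of these data known. The design had allowed for counts per library, and the authors' comparison was used in their place.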

Additional observations from a re-analysis of the deposited data

How the results depend on the processing

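The absence of a called member in the authors' expression comparison held under each of the 4 alternatives (0 in each), while calls over all genes went from 929 to 1547 at an adjusted p under 0.1 and to 153 without the trend in GC content and length; the cause was not tested. Removing that trend changed the sign of 12 of the 40 log2 fold changes, none of them over 0.21 in size before or 0.18 after; among the genes given in full these were Mcm6 (0.03), Rrm1 (0.13) and Cdc20 (-0.13). The median of the members stayed between -0.01 and 0.03. Among JuncBASE events, limma called 1 member event (the Kif23 intron of 3192 bases, adjusted p 0.04) and 23 over all when only events with 6 values were fitted, where fewer events were tested, and 5 over all but 0 in members on untransformed percentages. Leaving out 1 library at a time gave 0 to 5 member events and 0 to 1131 over all; the high counts came without smoke replicate 3 and the cause was not tested. The log2 odds of the Ccnb2 acceptor then ran from -2.12 to 0.75, positive without smoke replicate 1. The mean retention difference of -6.6 percentage points was -5.66 over every intron and ran from -6.98 to -6.17 with 1 library left out. Of the 2 rMATS introns, 0 remained at a false discovery rate under 0.01 and 0 at a difference of at least 10 percentage points. With the replicate number as a block, 0 member events and 0 events over all were called, and the mean retention difference was -6.6. No pairing by equal numbers was seen: the correlations of their deviations were 0.02, -0.04 and -0.09 over 5933 events, and not every library correlated best with its own number. Taken from means of 3 libraries, these values do not settle whether equal numbers share a day or litter. With a pseudocount of 5 percentage points, 0 events were called in members or over all, the log2 odds of the named introns were smaller, and 13 member events in place of 8 had an unadjusted p under 0.05. Depth per library is unknown.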
